A study of Homo sapiens with 4 samples.

Results

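CCT, also called TRiC, is the chaperonin of the cytosol, built from 8 related subunits that are encoded by TCP1, CCT2, CCT3, CCT4, CCT5, CCT6A, CCT7 and CCT8. All 8 genes were found among the 25693 human genes of the count table, by Ensembl identifier and symbol. The group was chosen by measured values: the summed counts of CCT2, which lies near MDM2 in band 12q15, had been seen to exceed those of the other subunits. Since that excess chose the gene, the levels below are a description and were not tested.

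RNA came from NGP, an established human neuroblastoma line known to carry extra copies of MYCN and MDM2. All cells had been synchronised by serum starvation and were then given Nutlin-3, a small molecule that keeps MDM2 from p53, or its solvent ethanol for 24 h, and polyadenylated RNA of single cells was sequenced from the 3' end on the ddSeq droplet device. There were 4 libraries, 2 per treatment, which differed in a dilution of the ERCC spike-in RNAs by 1000-fold or 10000-fold. The columns name the treatment and not the library, so each treatment is 1 pool of 250 columns, no value has a replicate, and no test between treatments could be run. The labels name no separate cultures, and DNA copy number was not measured.

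CCT forms a barrel of 2 stacked rings. In each ring every subunit has its own fixed place, so the finished complex holds the subunits in equal number. New polypeptides, above all actins and tubulins, are passed to the barrel by prefoldin, a smaller chaperone, and are folded inside it as the subunits bind and split ATP. Dividing cells need much of it, for actin, for tubulin and for the mitotic regulator CDC20.

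The ethanol pool held 1342134 human counts and the Nutlin-3 pool 1301232. In each pool 113 columns exceeded 4000 counts, called large here, and these carried 88.7% and 89.2% of the counts. The names of all 113 large columns occurred in both treatments, as did 219 of the 250 names in all. Whether a column is a single cell was not tested, and values are given per column. All 9 markers of adrenergic neuroblastoma on the list used had at least 50 counts in each pool, in sum 2783 in ethanol and 2552 in Nutlin-3. Of the 6 mesenchymal markers with a row, VIM had 276 and 277 counts, SNAI2 had 73 and 54, and the others had at most 58. LYZ and VWF, the 2 markers with a row among those of blood and endothelium, had 24 and 49, and 1 and 2 counts.

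CCT2 encodes the beta subunit (ENSG00000166226, chromosome 12, 69585334 to 69601570 in GRCh38). Its start region is shown because the excess turns on this gene, beside that of TCP1, which encodes the alpha subunit. Each line gives the bases before the RefSeq start site that lie in no GENCODE exon, read 5′ to 3′ on the strand of the gene, and capitals would mark a searched motif. They end 126 and 148 bases before that site. For CCT2 it is the first of 2 RefSeq start sites, and a stretch of 27 such bases before the second is not printed.

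CCT2, chr12:69585209-69585333, plus strand: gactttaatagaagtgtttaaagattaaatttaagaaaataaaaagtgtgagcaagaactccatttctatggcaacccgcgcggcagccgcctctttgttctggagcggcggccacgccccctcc
TCP1, chr6:159789750-159789811, minus strand: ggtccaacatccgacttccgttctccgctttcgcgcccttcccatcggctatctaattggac

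These stretches of 125 and 62 bases hold no capitals. The motifs searched on both strands were CACGTG, the E-box bound by MYC proteins, and GAANNTTC, the core of the heat shock element, which do not overlap here. In the 9 RefSeq windows of 300 bases (GRCh38.p14) found for 7 of the 8 subunits, CACGTG occurred in 0, against 7.26% of all 35116 windows of that length. GAANNTTC occurred in 2 of the 9, against 6.77% of all windows. These were the window of TCP1 and the second of the 2 CCT2 windows, whose start site lies 430 bases downstream of the first. CCT6A had no window in the table.

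CCT2 reached 884 counts in the ethanol pool (95% Poisson interval 827 to 944) and 806 in the Nutlin-3 pool (751 to 864). Among all human genes of the table this was the 9th highest sum in ethanol and the 12th highest in Nutlin-3. Scaled to the pool's total (CPM, per 1000000 counts), its level was 658 and 620 CPM. Among the genes closest to it over both pools, by distance of log2 CPM, were MT-CO1 at 0.024, a mitochondrial subunit of cytochrome c oxidase, and MTATP6P1 and MTCO1P12, pseudogenes of mitochondrial genes, at 0.172 and 0.191. RPL13A, a ribosomal protein gene, was at 0.218. CCT2 thus stood beside these 4 abundant transcripts. Intervals here cover counting error only and take counts as independent molecules.

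**Figure D1:**
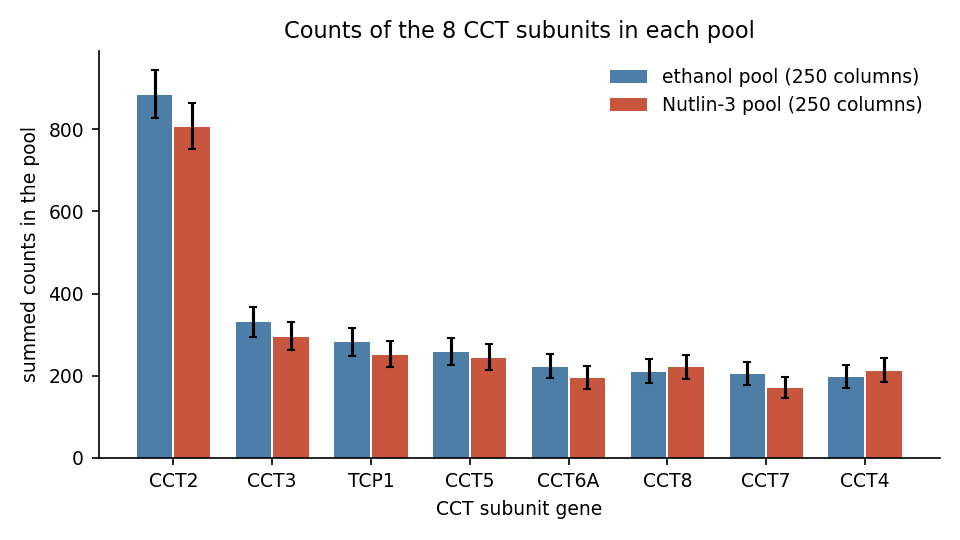
Summed counts (vertical axis) of the 8 CCT subunits in the ethanol and Nutlin-3 pools; bars start at 0 and error bars are 95% Poisson intervals. CCT2 stands at 884 and 806, and the other 7 subunits lie between 170 and 330 in both pools.

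By counts summed over all columns the other 7 subunits lay nearer to one another than to CCT2. The highest of them was 1.675 times the lowest in ethanol and 1.735 times in Nutlin-3. In columns of at most 4000 counts these values were 2.07 and 2.94. There CCT2 had 186 and 187 counts, CCT3 95 and 97, and the lowest subunit 46 (CCT4) and 33 (CCT7). By ratio CCT3 was thus nearer to CCT2 than to the lowest subunit in those columns, in both pools. Over all ethanol columns the intervals of the highest, CCT3, and the lowest, CCT4, both given below, did not overlap. CCT3, the gamma subunit (ENSG00000163468, chromosome 1, 156308968 to 156367873), came next with 330 counts in ethanol (295 to 368) and 295 in Nutlin-3 (262 to 331). TCP1 (ENSG00000120438, chromosome 6, 159778498 to 159789749) had 281 (249 to 316) and 251 (221 to 284). CCT5, the epsilon subunit (ENSG00000150753, chromosome 5, 10249921 to 10266412), had 258 (227 to 291) and 243 (213 to 276). These 3 genes led the 7 in both pools and in the same order.

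CCT6A, the zeta subunit (ENSG00000146731, chromosome 7, 56051630 to 56063989), was at 222 (194 to 253) in the ethanol pool and 194 (168 to 223) in the other. CCT8, the theta subunit (ENSG00000156261, chromosome 21, 29055805 to 29073797), had 210 (183 to 240) and 220 (192 to 251). CCT7, the eta subunit (ENSG00000135624, chromosome 2, 73233420 to 73253021), had 204 (177 to 234) and 170 (145 to 198). In ethanol CCT4, the delta subunit and a contact site of actin (ENSG00000115484, chromosome 2, 61868089 to 61888804), was the lowest with 197 (170 to 227), and it had 212 (184 to 243) in Nutlin-3. In the order of levels the ratio of each of these 7 to the next had a binomial interval that included 1, in both pools, most narrowly for CCT3 over TCP1 in ethanol at 1.174 (0.9986 to 1.382). The step from CCT2 to CCT3, which follows from how the gene was chosen, was 2.68 in ethanol (2.36 to 3.05) and 2.73 under Nutlin-3 (2.39 to 3.13). These intervals assume Poisson counts, and the 7 subunits varied less than that over the large columns, as given below.

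CCT6B, a paralogue of CCT6A known from testis, had 1 count and 5 counts. The zeta place was thus represented almost wholly by CCT6A transcripts in both pools, and no fold is given for CCT6B at such counts.

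Against the median of the other 7, CCT2 was 3.98 times as high in ethanol (interval 3.43 to 4.63) and 3.66 times in Nutlin-3 (3.15 to 4.27). It held 34.2% of all counts of the 8 genes in ethanol and 33.7% in Nutlin-3. The smallest of its ratios to a single subunit were those to CCT3 given above, and the largest were 4.49 to CCT4 in ethanol (3.84 to 5.26) and 4.74 to CCT7 in Nutlin-3 (4.01 to 5.63). Without CCT2 the highest subunit, CCT3, was only 1.53 and 1.37 times the median of the rest. The kit reads the 3' end, so counts were not divided by length. Per kilobase of the longest annotated transcript the ratios were 4.02 and 4.38.

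The size of the ratio depended on how counts fell over columns. In the 113 large ethanol columns CCT2 ranged from 2 to 42 counts with a median of 5, and in the large Nutlin-3 columns from 1 to 31 with a median of 5. CCT7, in contrast, had exactly 1 count in 80 of the 113 large columns in ethanol and in 89 in Nutlin-3. For CCT4 these numbers were 77 and 80, and for CCT3 they were 42 and 61. Variance over mean was 0.262 for CCT7 and 0.195 for CCT4 in the large ethanol columns, below the 1 of Poisson sampling, and 2.83 for CCT2. For CCT2 it was 1.95 in Nutlin-3, and without the column richest in CCT2 the ethanol value was 1.01 and the Nutlin-3 value 0.925, while the other 7 then lay between 0.172 and 0.524 over both pools. Most of the 7 subunits therefore sat at 1 count in most large columns, CCT3 in ethanol excepted, as did most genes: of the 5489 genes that averaged 0.9 counts or more per large ethanol column, the median gene had exactly 1 count in 87.6% of them.

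**Figure D2:**
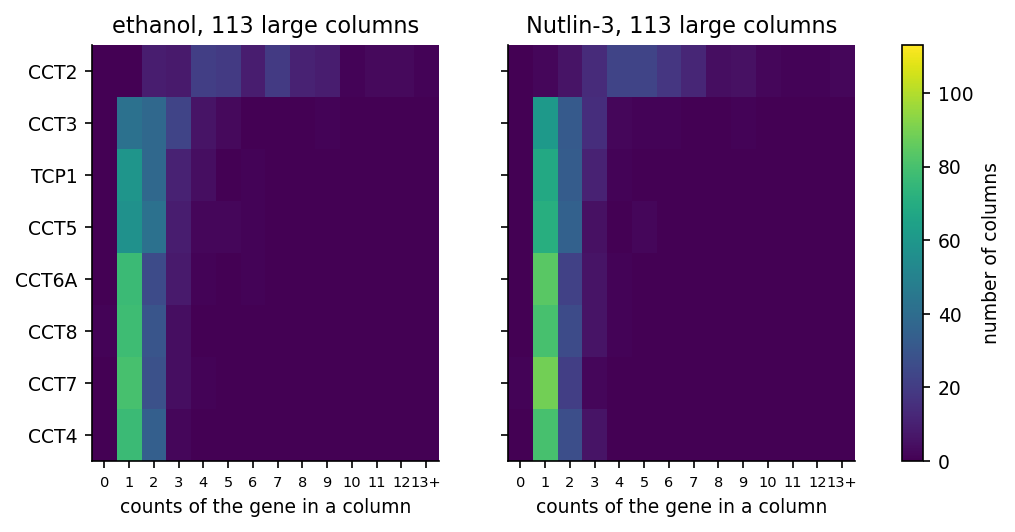
Number of columns (colour) by the counts of a subunit in the column (horizontal axis, 13 and above joined) for the 113 large columns of each pool. The 7 other subunits peak at 1 count with few columns above 3, while CCT2 spreads around its median of 5.

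CCT2 exceeded every other subunit in 101 of the 113 large ethanol columns, tied with the highest in 10 and was below it in 2. In Nutlin-3 the numbers were 103, 7 and 3. Counts beyond the first in a large column, a measure chosen after the data were seen, summed to 585 for CCT2 in ethanol and 506 in Nutlin-3. The median of the other 7 was 50 and 41, so that the ratio was 11.7 (8.76 to 16.0) and 12.3 (8.97 to 17.4). Counting each gene once per column gave the opposite extreme, 1.47 (1.20 to 1.79) and 1.39 (1.14 to 1.70). CCT2 led on every one of these measures, all of which rest on the counts that chose it. How many times higher it was cannot be fixed from these counts.

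In the 137 small columns of each pool, which hold at most 4000 counts, CCT2 summed to 186 and 187 counts. The ratio to the median of the others was 3.10 (2.31 to 4.22) and 2.83 (2.13 to 3.81). CCT2 was seen in 99.3% of the small ethanol columns and 97.1% of the small Nutlin-3 columns. CCT4, by comparison, was seen in 33.6% and 42.3%, and CCT6A in 41.6% and 30.7%. Here too CCT2 came first, with CCT3 and TCP1 next.

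At a common depth of 700 counts, to which columns were thinned at random, CCT2 was seen in 46.4% of 194 ethanol columns (95% exact binomial interval 39.2 to 53.7) and 36.4% of 187 Nutlin-3 columns (29.5 to 43.7). The 56 and 63 shallower columns were left out. Among the other subunits the share ran from 10.8% (6.83 to 16.1) for CCT4 to 25.8% (19.8 to 32.5) for TCP1 in ethanol. In Nutlin-3 it ran from 10.2% (6.23 to 15.4) for CCT7 to 21.9% (16.2 to 28.5) for CCT3. The thinned share of CCT2 was the highest of the 8 in both pools. Within large columns alone it was 34.5% and 28.3%, with CCT3 next at 14.2% and 13.3%. Within small columns the gap was narrower, 63.0% for CCT2 against 44.4% for TCP1 in ethanol and 48.6% against 37.8% for CCT5 in Nutlin-3. Columns are not replicates, and these intervals compare neither subunits nor treatments. Without thinning CCT2 was seen in 99.6% and 98.4% of the 250 columns. No cell type that lacks CCT2 was present to show what free RNA adds to such shares.

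A single column name held the most CCT2 counts in both pools, 42 in ethanol and 31 in Nutlin-3. It was unlike the other large columns, with 2.38 and 2.29 counts per detected gene against at most 1.29 and 1.26 in the rest. In this ethanol column CCT3 had 9 counts, TCP1, CCT5 and CCT6A had 6 each, CCT4 had 2, CCT7 had 1 and CCT8 had 0. In the Nutlin-3 column CCT3 had 9, CCT5 had 5, TCP1 had 4, CCT4, CCT6A and CCT8 had 2 each, and CCT7 had 0. CCT2 alone thus outnumbered the other 7 together, which had 30 and 24. Without this column the ratio to the median was 3.90 and 3.56 over the pools.

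The 12 other complexes listed, each with a fixed set of subunits, were set beside CCT as a description. In ethanol the ratio of the highest subunit to the median of the others ran from 1.12 for the COP9 signalosome, led by COPS3, to 2.14 for the Sm core of splicing particles, led by SNRPD2 with 389 counts. In Nutlin-3 it ran from 1.04 to 2.18, again for these complexes. None (0) of the 12 reached the ratio of CCT in either pool. CCT was chosen for the excess of CCT2 in these same counts and the 12 were not, so this is no test. The large columns showed the same, with at most 1.96 and 1.90 outside CCT against 4.28 and 4.02 for CCT. Most genes, however, sat at exactly 1 count in most large columns, as given above. Each of the 12 had a lower ratio in large than in small columns in both pools, such as 1.07 against 1.61 for ARP2/3 in ethanol. How the many counts of 1 bear on these ratios, in large columns and over all columns, was not tested. In the small columns, where many subunits had few counts, CCT did not stand out: 2 complexes in ethanol and 4 in Nutlin-3 had ratios as high, up to 3.41 for MCM2-7 and 4.47 for prefoldin.

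**Figure D3:**
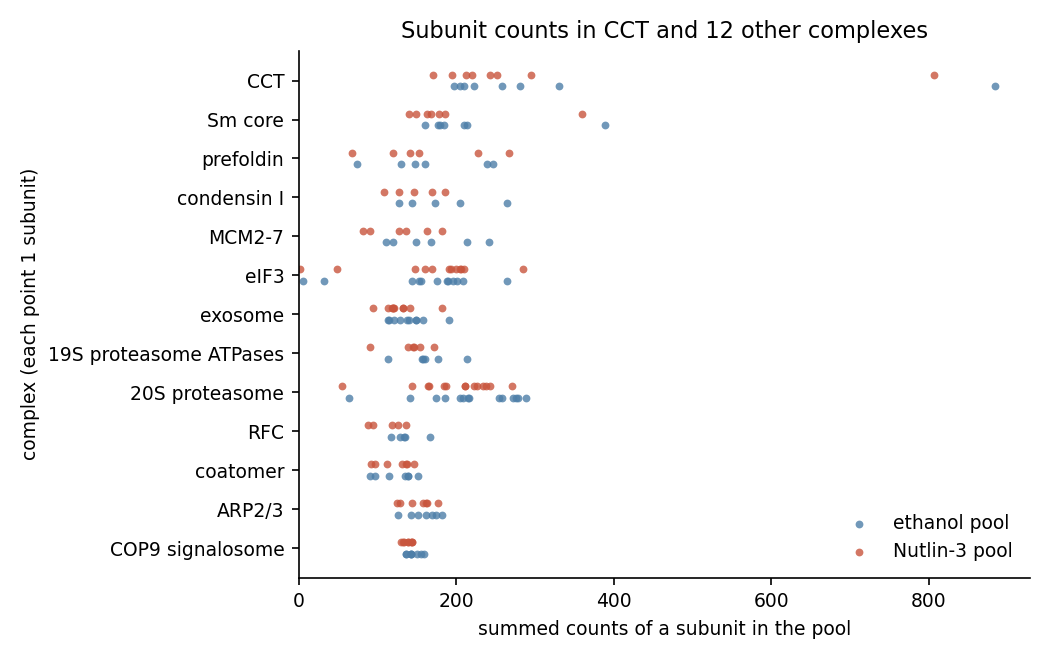
Summed counts (horizontal axis) of each subunit of CCT and of 12 other complexes in both pools, with complexes ordered by the ratio of the highest subunit to the median of the others in ethanol. CCT2, at 884 and 806, is far to the right of every other point, and the next highest point is SNRPD2 at 389 and 360.

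The leading subunits of the remaining complexes had modest counts. In ethanol PSMB4 of the 20S proteasome had 289, PSMC5 of the 19S ATPases 213, EIF3K of eIF3 264, SMC4 of condensin I 264 and MCM4 of the MCM2-7 helicase 241. PFDN2 of prefoldin had 247, EXOSC5 of the exosome 191, ARPC2 of ARP2/3 182, RFC3 of the clamp loader RFC 166 and COPA of the coatomer 151. The same genes led in Nutlin-3, except that PFDN5 led prefoldin with 267. Their ratios in Nutlin-3 lay between 1.17 for ARP2/3 and 1.89 for prefoldin.

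Reads of a gene can be split with its pseudogenes. Of the 8 subunits, 7 had pseudogene transcripts in GENCODE release 29 that matched theirs over at least 300 bases at 80% identity or more, 15 in all, and CCT2 had 0. Of these 15, 11 were in the table, with 241 counts in ethanol and 169 in Nutlin-3. CCT8P1, at 95.7% identity to CCT8, had the most in ethanol, 56, and 49 in Nutlin-3. TCP1P1 had 43 and 21, and TCP1P3 38 and 25. Only the match of CCT6P3, with 5 counts in each pool, reached the 3' end of its parent transcript. With all these counts added to their parents the ratio of CCT2 to the median was 3.24 in ethanol and 2.996 in Nutlin-3. Levels of the 7 subunits are uncertain to this extent, since how reads with several matches were counted is not given.

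CCT2 starts 777 kb from MDM2, the gene of the p53 inhibitor, and was the highest of 18 genes of 12q15. CNOT2 of the CCR4-NOT deadenylase followed with 435 counts in ethanol and 407 in Nutlin-3, and CPSF6, a cleavage factor of mRNA 3' ends, had 409 and 419. MDM2 itself had 315 and 504. NUP107 of the nuclear pore had 331 and 274, YEATS4 323 and 290, SLC35E3 283 and 244, FRS2 206 and 211, RAP1B 175 and 146, and CPM 146 and 141. RAB3IP had 113 and 116 and KCNMB4 114 and 117. The remaining 6 genes, LYZ, LRRC10, BEST3, MYRFL, PTPRB and PTPRR, had at most 34 counts in ethanol and 49 in Nutlin-3. Genes of high and of very low count thus lay near each other in this band, and CCT2 stood between FRS2 and LRRC10, which had 2 counts and 1.

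**Figure D4:**
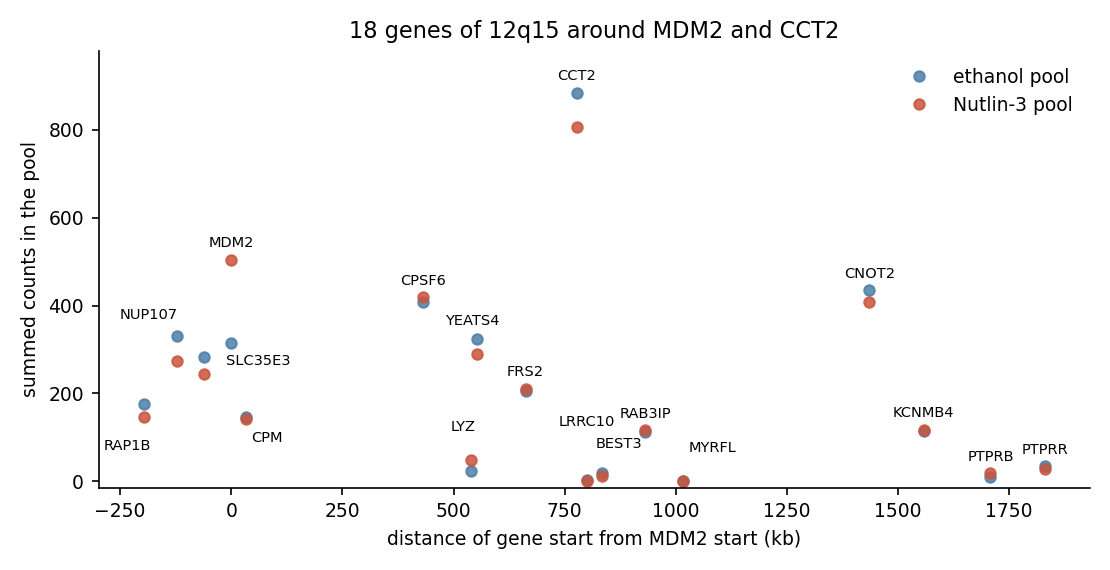
Summed counts (vertical axis) of 18 genes of 12q15 in both pools by distance of the gene start from that of MDM2 in kb (horizontal axis). CCT2, 777 kb away, is highest at 884 and 806, and MDM2 shows the widest gap between pools, 315 against 504.

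Protein-coding genes starting within 1 Mb of CCT2 numbered 17 and had a median of 146 counts in ethanol and 141 in Nutlin-3. Over all 14677 protein-coding genes of the table the median was 82 and 80. The medians around the other 7 subunits lay between 39 (TCP1) and 120 (CCT3) in ethanol and between 36 (TCP1) and 108 (CCT8) in Nutlin-3. The genes around CCT2 were thus the highest of the 8 neighbourhoods, and CCT2 was 6.05 and 5.72 times their median. This was not the highest such ratio, since TCP1 was 7.21 and 6.97 times the median of its own 11 neighbours. The other 6 subunits lay between 1.93 and 2.75 in ethanol and between 1.97 and 2.78 in Nutlin-3, so by this measure CCT2 came second. The part of gene copies in this was not tested. Both the windows and these comparisons were chosen after the data were seen.

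After TMM scaling no subunit differed between Nutlin-3 and ethanol by the fold change used as a limit. With scaling to ERCC counts 7 of the 8 were lower by that much, all but CCT4. The median of all genes averaging 50 CPM or more, -0.48 with that scaling, was past the limit too. ERCC dilution differed between libraries that the columns do not name, so the ERCC total of a pool depends on an unknown mix of libraries. Fold changes were taken after scaling by the TMM method of edgeR, with 0.5 counts added, and a gene was called where the log2 value reached 0.32 in size. By this rule 3.77% of the 8844 genes averaging 50 CPM or more were called higher in Nutlin-3 and 3.79% lower, and 0 of the 8 subunits were called. At 1.5-fold the shares of these genes were 0.622% and 0.384%. Over all 14830 genes past the filter on low counts they were 14.9% and 12.4%, and 7.81% and 5.85% at 1.5-fold, again with 0 subunits. For CCT2 the log2 fold change was -0.09 (interval -0.23 to 0.05). CCT7 had the lowest value, -0.22 (-0.52 to 0.08), and CCT4 the highest, 0.15 (-0.13 to 0.44). TCP1 was at -0.12 (-0.37 to 0.13), CCT3 at -0.12 (-0.35 to 0.12), CCT5 at -0.04 (-0.30 to 0.22), CCT6A at -0.15 (-0.43 to 0.14) and CCT8 at 0.11 (-0.17 to 0.39). All 8 intervals included 0 and all 8 values lay inside the central 95% of the 8844 genes, which ran from -0.37 to 0.37. Most of the 7 other subunits, like most genes, sat at 1 count in most large columns. How this bears on the folds was not tested.

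The subunits had a median of -0.10 against -0.01 for all genes, with 6 below 0 and CCT4 and CCT8 above, and both of these turned negative when pools were scaled to ERCC counts. That scaling lowered the median of all genes from -0.01 to -0.48. Summed over the 8 genes, counts went from 2586 to 2391, or -0.07 on the log2 scale (-0.15 to 0.01), and in the large columns alone it was -0.10 (-0.20 to -0.01). The log2 fold change of CCT2 minus that of the other 7 summed was -0.03 (-0.20 to 0.14), an interval that includes 0. This interval takes counts as independent and covers no variation between libraries, so it sets no limit of detection. MDM2, on the same band, stood at 0.72 (0.52 to 0.93). Within small columns the sum of the 8 was at 0.11 (-0.05 to 0.27), and CCT4 and CCT5 were called higher, at 0.52 (-0.06 to 1.11) and 0.36 (-0.14 to 0.86). CCT7 was called lower there, at -0.51 (-1.20 to 0.14). All 3 intervals included 0, and in these columns 31.8% of the genes were called higher and 29.8% lower.

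**Figure D5:**
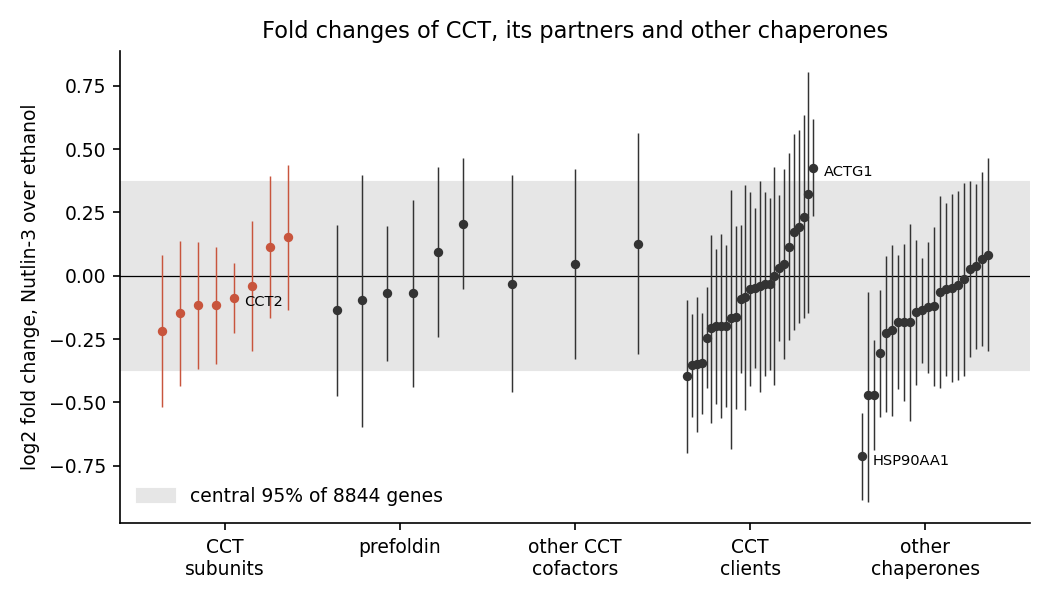
Log2 fold changes, Nutlin-3 against ethanol (vertical axis), of genes averaging 50 CPM or more in 5 lists, with 95% counting intervals; the grey band is the central 95% of 8844 genes. All 8 CCT subunits and all prefoldin subunits and cofactors lie inside the band, and HSP90AA1, at -0.71, lies farthest from it.

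Partners of CCT were not called either, like most genes, of which 3.77% were called higher and 3.79% lower. Of the 6 prefoldin subunits 0 were called, and their log2 fold changes ran from -0.14 for VBP1 to 0.21 for PFDN5. PFDN1 had 130 ethanol and 120 Nutlin-3 counts, PFDN4 147 and 152, and PFDN6, the lowest, 74 and 67. Among the phosducin-like and thioredoxin-like cofactors, which bind CCT and tune its ATP cycle, PDCL had 88 and 93 counts, PDCL3 had 96 and 91, and TXNDC9 had 121 in both. All 3 had values between -0.03 and 0.13. In the 113 large columns of each pool PFDN1 summed to 117 and 109 counts and TXNDC9 to 111 and 112, near 1 per column. PFDN2 had 183 and 162 there and PFDN5 170 and 191. How counts near 1 per column bear on folds was not tested.

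Of 31 listed proteins known to fold on CCT, 27 averaged 50 CPM or more. Of these 4 were called lower, 2 higher and 21 neither, against 3.79% and 3.77% of all genes, and their median was -0.05. The 4 called lower were tubulins, while other tubulins were not called. TUBA1A was at -0.24, TUBB2A at -0.16, TUBG1 at -0.03, TUBB2B at 0.03 and TUBB6 at 0.17. TUBB4B went from 219 counts to 161, at -0.40 (-0.70 to -0.10). TUBB had 470 and 356 (-0.35, -0.56 to -0.15), TUBA1C had 271 and 206 (-0.35, -0.62 to -0.08), and TUBA1B had 487 and 371 (-0.35, -0.55 to -0.15). Tubulin genes are near copies of one another, so counts may be split between them.

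Of the actins, ACTG1, cytoplasmic gamma-actin, had 394 ethanol and 513 Nutlin-3 counts, a value of 0.43 (0.23 to 0.62) that became -0.04 when scaled to ERCC counts. ACTB, its beta counterpart, had 197 and 166 counts and a value of -0.20 (-0.51 to 0.10). BBS2, a subunit of the ciliary BBSome, was also called higher with 70 and 85 counts, at 0.32 (-0.15 to 0.80), an interval that includes 0, and at -0.14 with ERCC scaling. In the large columns alone, where 3.06% of genes were called lower and 2.92% higher, 3 clients were called lower and 1 higher, the values for TUBA1C and BBS2 being -0.24 and 0.29. In the small columns TUBA1B was at 0.0035 (-0.38 to 0.38) and TUBB at -0.23 (-0.61 to 0.14), neither past the limit. TUBA1C, at -0.54 (-1.07 to -0.03), TUBB4B, at -0.52 (-1.25 to 0.17), and ACTG1, at 0.41 (0.04 to 0.79), were past it there. BBS2 had 1 ethanol and 3 Nutlin-3 counts in them. Of all genes 29.8% were called lower and 31.8% higher in these columns. CDC20, which CCT folds for the mitotic checkpoint, had 180 and 152 counts and a value of -0.20 (-0.52 to 0.12). Fewer RNAs per cell and fewer dividing cells cannot be told apart in pooled counts.

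A list of other chaperones was read in the same way. Of the 25 genes listed, 24 had a row and 22 averaged 50 CPM or more. Of these 3 were called lower and 0 higher, against 3.79% and 3.77% of all genes, and the median was -0.13. HSP90AA1, the inducible HSP90, went from 755 counts to 446, or -0.71 (-0.89 to -0.54). PTGES3, its co-chaperone p23, had 425 and 297, or -0.47 (-0.69 to -0.25), and BAG2, a co-chaperone of HSP70, had 122 and 85, or -0.47 (-0.89 to -0.06). These names were chosen after their values were seen. The same 3 were called lower in the large columns alone, where 3.06% of genes were. In the small columns 29.8% of genes were called lower, so a value past the limit says little there. In the small columns HSP90AA1 was at -0.35 (-0.70 to -0.01), BAG2 at -1.14 (-3.83 to 0.78) and PTGES3 at -0.28 (-0.70 to 0.13), the last not past the limit. HSPD1 and HSPE1, the chaperonin pair of mitochondria, had 268 and 238, and 259 and 221 counts, with values of -0.12 (-0.38 to 0.13) and -0.18 (-0.45 to 0.08). HSF1, the factor that drives heat shock genes, was at 0.08 (-0.30 to 0.46).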

How the data were processed

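Counts in the deposited table are whole numbers for 25693 human genes and 62 ERCC species in 500 columns. The aligner, barcode reading, build, filters and use of strand were not given in the sources used here. Columns ending in treated were taken as Nutlin-3 and those ending in untreated as ethanol, 0 were unassigned, and each treatment was summed as 1 pool, so the planned edgeR test could not be run. Scaling used TMM in edgeR 4.0.16 (R 4.3.3), after its filter with a minimum of 10 counts, which kept 14830 genes. Names and positions came from GENCODE release 29 (GRCh38), for 25602 genes. That build need not be the authors'. Fold intervals came from the exact binomial share of both counts in Python 3.11.15 with SciPy 1.17.1. Pseudogenes were found with blastn 2.17.0. The steps were tested on simulated data. All intervals are at 95%.

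The 8 members, the lists and the boundary of 4000 counts were chosen with earlier results of these data known. Genes were named by rule: all subunits and CCT6B, genes of the 12q15 list, prefoldin and cofactors, up to 8 called clients averaging 50 CPM or more, the highest subunit of each complex, and the 5 genes nearest to CCT2, of which 1 is not reported here. Windows of 1 Mb and pseudogene limits were set after the data were seen.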

Additional observations from a re-analysis of the deposited data

How the results depend on the processing

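No paired analysis was possible because column names hold a barcode and the treatment but no replicate number, and for the same reason neither the replicate block nor fits without 1 library were run. The ratio of CCT2 to the median of the other 7 subunits stayed above 1 under all 8 alternatives in both pools. Since the excess in these same counts chose the gene, this is no independent evidence for it. The ratio left its counting interval, with the ethanol value before the Nutlin-3 value, in small columns (3.10 and 2.83), with each gene counted once per column (1.47 and 1.39), with counts beyond the first in large columns (11.7 and 12.3) and with pseudogene counts added (3.24 and 2.996). In Nutlin-3 it also did so per kilobase (4.38) and without columns whose names occur in both treatments (3.09), which keeps 31 columns. The log2 fold change of the 8 summed, -0.07, became 0.11 in small columns and 0.023 with each gene counted once. It was 0.069 without shared names and -0.54 scaled to ERCC counts. In that order the number of subunits called, 0, became 3, 0, 4 and 7. For counts beyond the first it was 3, with CCT5 at -0.345, CCT7 at -0.405 and CCT8 at 0.335. In small columns 31.8% of genes were called higher and 29.8% lower. With ERCC scaling the median of genes averaging 50 CPM or more, -0.48, was itself past the limit. Apart from small columns, no share of all genes called is given for these settings. The numbers of subunits called are therefore not a result about the subunits. The fold change of CCT2 minus that of the others, -0.03, became -0.45 without shared names (-1.33 to 0.43) and 0.18 for counts beyond the first (-0.09 to 0.45). The cause was not tested, except that ERCC scaling by construction shifts all genes alike and the columns with unshared names hold few counts. Of 80 fold changes of single subunits 61 stayed within their intervals. DESeq2 1.42.0 size factors, human totals, 1 count added, no filter and a 1.5-fold call gave 0 called subunits. Counts beyond the first, and leaving out the column richest in CCT2, were added after the data were seen.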
